A study of Mus musculus with 6 samples.

Results

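The genes described here are 45 genes of epithelial cell junctions, keratins and their regulators, measured in a mouse embryonic stem cell line whose Argonaute 2 (Ago2, the effector protein that microRNAs guide to transcripts) responds to doxycycline. They were taken by symbol from a list of names, with no measured value in the rule, and all 45 were found among the 31310 genes with a usable isoform. The list was drawn up with earlier results of these data known, so it is not independent of them. Of these, 40 averaged at least 1 FPKM in one condition or the other and were tested among 13207 genes. FPKM counts the fragments of a transcript per kilobase of its length and relative to the library's total. TT-FHAgo2 is a clonal line of mouse embryonic stem cells, so both conditions come from the same clone. Both were propagated in 0.1 µg/mL doxycycline. The cells of 2 libraries were then brought to 2.5 µg/mL for 48 h, the dose that the labels tie to the wild-type level of Ago2. The cells of the other 2 libraries were withdrawn from the drug for 96 h. The labels do not name the promoter of the inducible gene or the state of the other Argonaute genes. The libraries are strand-specific, prepared from mRNA with the UTP method, and carry the numbers 0 and 1 within each condition. The drug, its withdrawal and the time differ together and cannot be told apart.

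Epithelial cells are held together by adherens junctions, in which cadherins bind across the gap between cells and catenins link them to actin, by desmosomes, which tie the membrane to keratin filaments, and by tight junctions, in which claudins and occludin seal the space between cells. Mouse embryonic stem cells grow as compact colonies held by E-cadherin and carry parts of this programme. Zeb and Snai proteins are zinc finger repressors that bind E-boxes (CACCTG, or CAGGTG on the other strand) in promoters of epithelial genes. The miR-200 family of microRNAs is known to target Zeb transcripts, and the miR-290 and miR-302 clusters hold the abundant microRNAs of embryonic stem cells.

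Ago2, listed under its older symbol Eif2c2, was read first as a check of the labels. It stood at 35.2 and 36.7 FPKM with doxycycline and at 28.7 and 28.8 FPKM without (log2 change -0.32, SE 0.08, limma adjusted p = 0.0287). The direction is that of the labels. But the fall is small and 21.3% of all genes tested were called lower, so it cannot settle which columns had the drug. The markers of embryonic stem cells (8 genes) summed to 4087 and 4589 FPKM with doxycycline and to 4216 and 4811 FPKM without. Of these, Nanog was called higher, and Zfp42 and Utf1 were called lower, without the drug. Low FPKM values of the libraries numbered 1 fell on whole reads in 100% of cases, within 0.1 read, which gives totals of 47.3 M fragments (M, mega) with doxycycline and 47.5 M without. In the libraries numbered 0 only 34.0% and 34.5% did, so their depth is unknown. By these totals, 3 reads of a 2000-nt transcript correspond to 0.0350 and 0.0348 FPKM. Nothing in the labels ties the libraries to separate cultures, and the p-values therefore reflect only how far these samples spread, which may be technical. In bulk RNA, a change in the share of cells that express a gene cannot be told apart from a change in its RNA per cell.

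Without doxycycline, 24 of the 40 members tested were higher, 2 were lower and 14 did not pass the threshold (adjusted p under 0.05 in limma, a linear model fitted to log2(FPKM + 0.5) of all genes tested). Over all genes tested, 41% passed in either direction (5417 genes), 19.7% as higher and 21.3% as lower. The median log2 change was 0.44 over the members tested and -0.06 over all genes tested. Of all calls, 48.1% were higher. With the medians of the libraries set equal this share was 38.0%, and 21 members were higher and 4 lower. On the TPM scale, in which the isoforms used sum to the same total in each library, it was 67.6%, and 27 members were higher and 1 lower. The TPM scale moved the median of all genes to 0.10 and that of the members to 0.61. The members higher numbered 15 without library 0 with doxycycline, and 16 to 20 without any one of the others, while calls over all genes fell from 5417 to 3480 without that library. With no filter on low values, Cdh1, Cdh2, Cldn4, Cldn6, Ocln and Grhl2 lost their calls (limma adjusted p between 0.0544 and 0.117). With all isoforms of a gene summed, Cdh2, Cldn4, Cldn6 and Ocln did (0.0580 to 0.0727), and with library medians set equal Cdh2, Cldn4 and Ocln did (0.0549 to 0.0921). The 2 libraries of each condition did not overlap in 35 of the 40 members, where this held for 73.1% of all genes tested. The filter on low values did not separate the conditions here, since each of the 40 members reached 1 FPKM in both, the lowest condition mean being 1.02 FPKM (Marveld3, with doxycycline). Each log2 change is the level without minus the level with doxycycline, taken as log2(FPKM + 0.5), so changes of low genes are understated. Errors are SD of n = 2 libraries. With 2 libraries against 2, the smallest p of a permutation test is 0.333, so calls rest on the spread limma pools over genes. The highest rise was that of the keratin Krt19, and the 11 calls kept under every alternative analysis that tested the gene were those of Dsp, Dsg2, Pkp2, Cldn3, Cldn7, Marveld2, Krt8, Krt19, Krt42, St14 and Snai1.

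**Figure D1:**
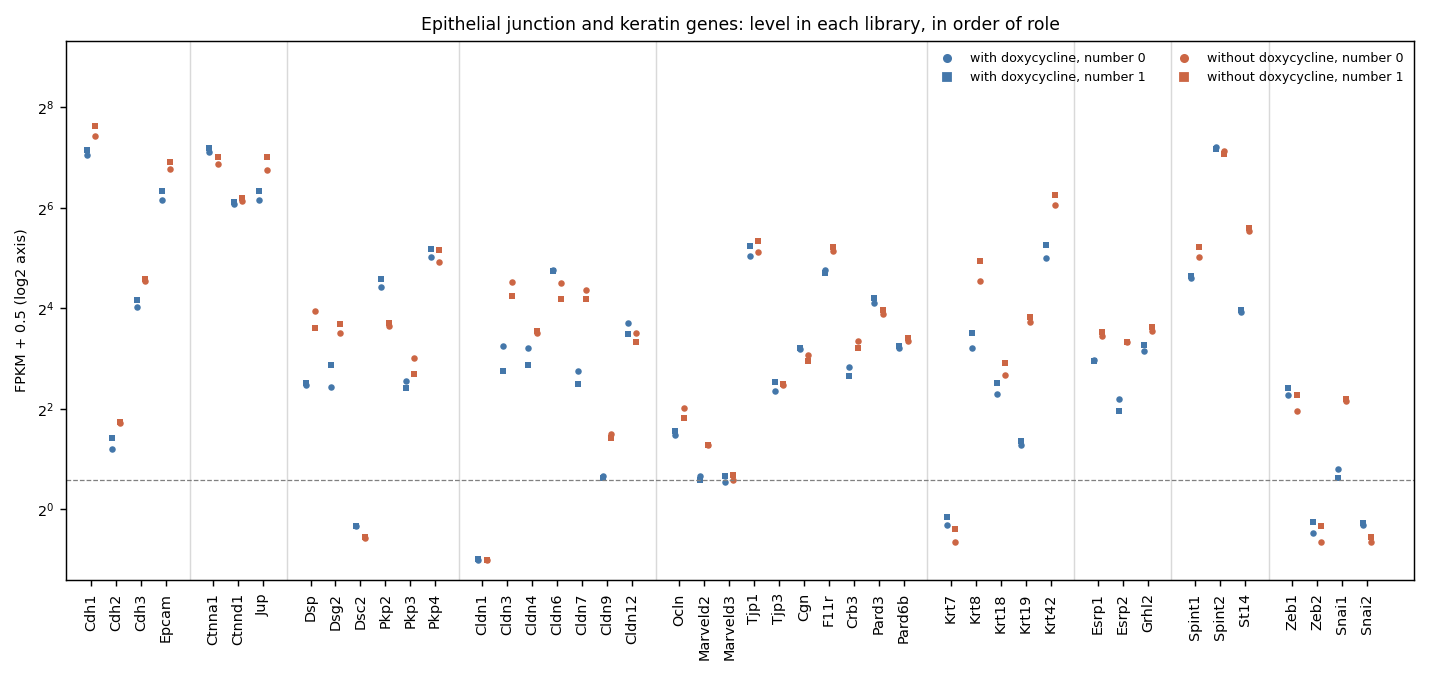
Level of each of the 45 members in each library, as FPKM + 0.5 on a log2 axis, in order of role (vertical lines part the roles). Blue points are libraries with doxycycline and orange points those without, circles are number 0 and squares number 1, and the dashed line marks the minimum of 1 FPKM. Krt19 stands at 1.93 and 2.05 FPKM with the drug and at 12.8 and 13.7 FPKM without, while the points of Tjp1, Tjp3, Pkp4, Cldn12 and Marveld3 overlap.

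The classical cadherins Cdh1, Cdh2 and Cdh3 and the adhesion gene Epcam were all higher without doxycycline. Cdh1 (chr8:109127251-109194146, plus strand, build NCBIM37), which encodes E-cadherin, was at 131 and 142 FPKM with the drug and at 173 and 196 FPKM without. Cdh3 (chr8:109034362-109080808, plus strand), which encodes P-cadherin and lies 46.4 kb upstream of Cdh1, was at 15.9 and 17.3 FPKM with it and at 22.8 and 23.3 FPKM without. Both libraries without the drug were above both with it for each of these neighbours, and the log2 changes were 0.43 for Cdh1 (SE 0.11, limma adjusted p = 0.0274) and 0.47 for Cdh3 (SE 0.09, limma adjusted p = 0.0130). Cdh2, which encodes N-cadherin, the cadherin of neural and mesenchymal cells, was low, at 1.79 and 2.17 FPKM with doxycycline and 2.81 and 2.85 FPKM without (log2 change 0.43, SE 0.12, limma adjusted p = 0.0445). E-cadherin RNA was far above N-cadherin RNA per length in every library. Epcam (chr17:88035304-88050477, plus strand), a surface adhesion glycoprotein of epithelia that embryonic stem cells also carry, was at 70.8 and 79.9 FPKM with the drug and at 108 and 121 FPKM without. Its conditions did not overlap (log2 change 0.60, SE 0.11, limma adjusted p = 0.0113). With 1 library fewer, calls were lost while the changes kept their direction. Without library 0 with doxycycline the log2 changes were 0.37 for Cdh1, 0.31 for Cdh2, 0.40 for Cdh3 and 0.51 for Epcam, and none passed (limma adjusted p = 0.167, 0.195, 0.0852 and 0.0642). Cdh1 was also lost without library 1 with doxycycline (log2 change 0.49, limma adjusted p = 0.0891) or library 1 without it (0.34 and 0.0806). Cdh2 was lost without any one of the other 3 libraries (log2 change 0.42 to 0.54, limma adjusted p between 0.0542 and 0.116).

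Cdh3 is shown with a microRNA site because it is the only tested member whose annotated 3′ untranslated region held a site of 8 bases for the stem cell family of miR-291a-3p. The mature microRNAs of this family, from RefSeq, share the seed (bases 2 to 8, in capitals), and 3 of them are printed.
mmu-miR-291a-3p: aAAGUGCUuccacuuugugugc
mmu-miR-294-3p: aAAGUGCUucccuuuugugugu
mmu-miR-302b-3p: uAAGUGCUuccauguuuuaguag
The site of Cdh3 lies at bases 1265 to 1272 of a region of 1847 nt in GENCODE M21 (build GRCm38, used for sequence only), printed as 30 bases with the match in capitals.
Cdh3: agaaagccagcAGCACTTAgctttgatgac
The letters searched were AGCACTTA (8 bases) and the 7-base parts AGCACTT and GCACTTA, on the transcript strand. Such a site of 7 or 8 bases was held by 6 of the 40 members tested (15%) and by 20.8% of the 10135 genes tested with an annotated region. The median region was 866 nt long in the members and 1152 nt over those genes. Of the 6, Cdh3, Jup, Dsg2, Esrp2 and Grhl2 were higher without doxycycline, and Zeb1 did not pass. The other 19 members called higher held none, among them Krt19, Cldn7, St14 and Snai1. Over all genes, 29.7% of the 2107 with a site and 19.9% of the 8028 without one were called higher. A match of letters is a description and does not show that a site is used.

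Among the catenins only plakoglobin passed. Jup (chr11:100230272-100259079, minus strand), which encodes plakoglobin, a catenin of both adherens junctions and desmosomes, was at 70.6 and 80.5 FPKM with doxycycline and 107 and 128 FPKM without. Both libraries without the drug were higher (log2 change 0.63, SE 0.13, limma adjusted p = 0.0162). Without library 0 with doxycycline the change was 0.53 and did not pass (limma adjusted p = 0.0693). Ctnna1, which encodes alpha-catenin, the link of the cadherin complex to actin, was at 138 and 145 FPKM with doxycycline and 117 and 129 FPKM without. Its libraries did not overlap, but the difference did not pass (log2 change -0.20, SE 0.09, limma adjusted p = 0.140). With the medians of the libraries set equal it passed (log2 change -0.26, limma adjusted p = 0.0289). Ctnnd1, which encodes p120-catenin, a stabiliser of cadherins at the membrane, was nearly level, at 67.1 and 69.2 FPKM with the drug and 69.6 and 72.9 FPKM without (log2 change 0.06, SE 0.08, limma adjusted p = 0.558). On the TPM scale it passed (log2 change 0.22, limma adjusted p = 0.0492).

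The desmosome genes moved in both directions. Dsp (chr13:38243197-38290446, plus strand) encodes desmoplakin, which anchors keratin filaments to the plaque, and was at 5.09 and 5.21 FPKM with doxycycline and 15.0 and 11.6 FPKM without. Dsg2, a desmosomal cadherin of simple epithelia, was at 4.91 and 6.83 FPKM with the drug and 10.8 and 12.3 FPKM without. In both genes each library without doxycycline was well above each with it, with log2 changes of 1.28 for Dsp (SE 0.14, limma adjusted p = 0.00347) and 0.94 for Dsg2 (SE 0.17, limma adjusted p = 0.0118). Pkp2 (chr16:16213411-16272805, plus strand), a plakophilin that joins desmosomal cadherins to desmoplakin, went the other way, with 21.0 and 23.3 FPKM with doxycycline and 12.1 and 12.5 FPKM without. It is the larger of the 2 falls in the set (log2 change -0.82, SE 0.09, limma adjusted p = 0.00379). Pkp3, a second plakophilin, was at 5.37 and 4.82 FPKM with the drug and 7.60 and 5.95 FPKM without, and did not pass (log2 change 0.37, SE 0.14, limma adjusted p = 0.0871). Leaving out library 1 without doxycycline brought Pkp3 past the threshold (limma adjusted p = 0.0377). Pkp4, an armadillo protein of cell contacts related to p120-catenin, overlapped between conditions, at 31.7 and 36.0 FPKM with doxycycline and 29.9 and 35.4 FPKM without (limma adjusted p = 0.745). Dsc2, the partner cadherin of Dsg2, lay under the minimum for testing at 0.292, 0.297, 0.170 and 0.182 FPKM, the values with doxycycline first.

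Claudins form the sealing strands of tight junctions, and 4 of the 6 tested were higher without doxycycline while Cldn6 was lower. Cldn7 (chr11:69778281-69781387, plus strand) was at 6.24 and 5.14 FPKM with the drug and 20.1 and 17.6 FPKM without. Cldn3 (chr5:135462084-135463342, plus strand) was at 8.96 and 6.28 FPKM with it and 22.4 and 18.5 FPKM without. These are 3.32-fold and 2.68-fold differences in mean FPKM, with log2 changes of 1.65 for Cldn7 (SE 0.13, limma adjusted p = 0.00202) and 1.38 for Cldn3 (SE 0.19, limma adjusted p = 0.00570). Cldn4 (chr5:135421983-135422615, minus strand), which lies 39.5 kb from Cldn3, had a smaller difference, from 8.70 and 6.83 FPKM with doxycycline to 10.8 and 11.2 FPKM without (log2 change 0.49, SE 0.13, limma adjusted p = 0.0357). Its call was lost without library 1 with doxycycline (log2 change 0.32, limma adjusted p = 0.147) or without either library lacking the drug (0.52 and 0.0785 without number 0, 0.46 and 0.0947 without number 1). With all isoforms of the gene summed, its change was 0.29 (limma adjusted p = 0.0580).

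Cldn6 (chr17:23816217-23819417, plus strand), known as a claudin of embryonic epithelia and pluripotent cells, had the highest claudin level with doxycycline, at 26.8 and 26.2 FPKM with the drug and 22.1 and 17.7 FPKM without. Cldn9 (chr17:23819429-23821067, minus strand) was at 1.08 and 1.05 FPKM with the drug and 2.33 and 2.16 FPKM without. The 2 genes end 0.011 kb apart on opposite strands and had opposite calls, with log2 changes of -0.41 for Cldn6 (SE 0.12, limma adjusted p = 0.0470) and 0.81 for Cldn9 (SE 0.12, limma adjusted p = 0.00671). Whether the authors' counting used the strand, and how it shared reads between similar claudins, is not given in the sources used here, so their split is uncertain. The fall of Cldn6 was lost without either library with doxycycline (log2 change -0.40 and -0.43, limma adjusted p = 0.133 and 0.118). It was also lost without library 1 lacking the drug (log2 change -0.26, limma adjusted p = 0.122), on the TPM scale (-0.26 and 0.221) and with no trend (-0.41 and 0.0575). Cldn12 overlapped between conditions, at 12.6 and 10.7 FPKM with the drug and 10.9 and 9.61 FPKM without (limma adjusted p = 0.293). Cldn1 was listed at 0 in 3 libraries and at 0.00701 FPKM in library 1 with doxycycline, below the worth of 3 reads.

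Promoters are shown for the 3 members with the largest rises among those whose RefSeq promoter held an E-box, Cldn7, Snai1 and Krt8, because the set includes repressors that bind these letters. Each is the 250 bases before the annotated start, 5′ to 3′ on the gene's strand (build GRCm38.p6), with E-boxes in capitals and positions counted back from the start. In Cldn7 (chr11:69965171-69965420, plus strand) E-boxes began at -97 and -57, and its other listed promoter held none.
Cldn7: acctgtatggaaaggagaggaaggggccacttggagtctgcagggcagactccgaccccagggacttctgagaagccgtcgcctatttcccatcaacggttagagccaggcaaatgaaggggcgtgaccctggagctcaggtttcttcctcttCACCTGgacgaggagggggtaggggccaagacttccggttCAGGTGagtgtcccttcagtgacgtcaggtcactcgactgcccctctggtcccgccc
Snai1: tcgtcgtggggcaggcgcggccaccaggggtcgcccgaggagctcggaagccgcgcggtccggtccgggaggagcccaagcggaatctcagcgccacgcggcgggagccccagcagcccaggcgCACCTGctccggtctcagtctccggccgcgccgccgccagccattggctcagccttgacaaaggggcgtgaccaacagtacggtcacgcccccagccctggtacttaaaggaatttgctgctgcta
Krt8: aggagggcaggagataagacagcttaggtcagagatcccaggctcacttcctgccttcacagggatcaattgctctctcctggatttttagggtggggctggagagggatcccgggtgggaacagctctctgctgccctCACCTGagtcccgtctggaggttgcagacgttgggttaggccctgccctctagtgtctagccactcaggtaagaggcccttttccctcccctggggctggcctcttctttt
The single E-boxes of Snai1 (chr2:167537945-167538194, plus strand) and Krt8 (chr15:102004343-102004592, minus strand) began at -126 and -111. RefSeq promoters were matched for 28 of the 45 members, 25 of them tested. Of these 25, 15 (60%) held an E-box in a promoter, where 18.9% of the 8146 tested genes with a listed promoter did. By promoter, 18 of 41 (43.9%) held one, where 17.2% of all 32851 listed promoters did. The 2 listed promoters of Crb3 overlap and hold the same 3 E-boxes, and each is counted. Cdh1, Cdh3, Krt19, St14, Esrp1, Esrp2 and Grhl2 are among the members with no matched promoter and lie outside these shares. E-boxes were found in 8 of the 14 matched members called higher and in 7 of the 11 other matched members tested. The site of grainyhead-like factors, searched as AACNGGTT or AACCNGTT, was found in the promoter of 1 matched tested member, Cgn, and in 1.93% of the tested genes. These shares describe letters in a window, and no binding was measured.

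Of the other tight junction and polarity genes, 4 of 10 were higher without doxycycline and none was called lower. Ocln, which encodes occludin, was at 2.27 and 2.47 FPKM with the drug and 3.53 and 3.03 FPKM without. Marveld2, which encodes tricellulin, the protein of corners where cells meet, was at 1.08 and 0.995 FPKM with the drug and 1.92 in both libraries without. The log2 changes of these neighbours, 43.1 kb apart on chromosome 13, were 0.39 for Ocln (SE 0.12, limma adjusted p = 0.0490) and 0.65 for Marveld2 (SE 0.12, limma adjusted p = 0.0123). F11r, which encodes the junctional adhesion molecule JAM-A, was at 26.7 and 25.4 FPKM with doxycycline and 34.5 and 36.5 FPKM without (log2 change 0.44, SE 0.08, limma adjusted p = 0.0139). Crb3, the Crumbs protein of the apical membrane of epithelia, was at 6.60 and 5.77 FPKM with the drug and 9.73 and 8.75 FPKM without (log2 change 0.54, SE 0.11, limma adjusted p = 0.0162). In each of these 4 genes the conditions did not overlap. Except for Marveld2, calls were lost with 1 library fewer, in the same direction. Ocln was lost without any one library (log2 change 0.30 to 0.49, limma adjusted p between 0.0570 and 0.186). F11r was lost without library 0 with doxycycline (log2 change 0.48, limma adjusted p = 0.0594) or library 1 with it (0.40 and 0.0986). Crb3 was lost without library 1 with doxycycline (log2 change 0.45, limma adjusted p = 0.0665) or library 0 lacking it (0.47 and 0.0597).

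The tight junction scaffolds of the set did not pass. Neither did Pard3 and Pard6b of the Par complex, which sets the border between apical and lateral membrane. Outside the set, Pard6a and Pard6g were called lower (limma adjusted p = 0.00915 and 0.00363). Tjp1, which encodes the scaffold ZO-1, was at 32.4 and 37.5 FPKM with doxycycline and 34.1 and 40.2 FPKM without, and Tjp3, which encodes ZO-3, at 4.59 and 5.28 FPKM with it and 5.07 and 5.16 FPKM without. Both overlapped between conditions (limma adjusted p = 0.611 and 0.723), as did Marveld3, a relative of occludin, between 0.961 and 1.11 FPKM (limma adjusted p = 0.876). Cgn, which encodes cingulin, a plaque protein that links to the cytoskeleton, was at 8.67 and 8.77 FPKM with the drug and 7.87 and 7.25 FPKM without (log2 change -0.19, SE 0.09, limma adjusted p = 0.136). Pard3 was at 16.7 and 18.0 FPKM with the drug and 14.3 and 15.1 FPKM without (log2 change -0.23, SE 0.09, limma adjusted p = 0.0899). Pard6b, its partner, was at 8.79 and 9.06 FPKM with it and 9.69 and 10.2 FPKM without (log2 change 0.15, SE 0.08, limma adjusted p = 0.212). The libraries of Cgn, Pard3 and Pard6b did not overlap, yet their differences were below the threshold. Pard3 passed as lower with library medians set equal (log2 change -0.29, limma adjusted p = 0.0276), and Pard6b as higher on the TPM scale (log2 change 0.31, limma adjusted p = 0.0375).

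Keratins are the intermediate filament proteins of epithelia, and Krt19 had the largest change of the 40 members tested. Krt19 (chr11:100002124-100009979, minus strand), a type I keratin of simple epithelia, was at 1.93 and 2.05 FPKM with doxycycline and 12.8 and 13.7 FPKM without. This is a 6.66-fold difference in mean FPKM, from 1.99 ± 0.0874 to 13.2 ± 0.622, and Krt19 ranked 16 of the 13207 genes tested by log2 change (2.46, SE 0.09, limma adjusted p = 0.00119). Krt8 (chr15:101827142-101834742, minus strand), the type II keratin of simple epithelia, was at 8.78 and 10.9 FPKM with the drug and 22.7 and 30.3 FPKM without. Both libraries without the drug were at least 22.7 FPKM and both with it at most 10.9 FPKM (log2 change 1.37, SE 0.18, limma adjusted p = 0.00495). Its usual type I partner Krt18 (chr15:101858659-101862451, plus strand), 23.9 kb away, had a smaller difference, from 4.42 and 5.17 FPKM to 5.91 and 6.99 FPKM. Its libraries did not overlap, but it did not pass (log2 change 0.39, SE 0.13, limma adjusted p = 0.0603), and passed on the TPM scale (log2 change 0.56, limma adjusted p = 0.0140).

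Krt42 (chr11:100124194-100139553, minus strand), another type I keratin, was at 31.7 and 37.7 FPKM with doxycycline and 66.2 and 75.8 FPKM without, the highest keratin of the set in every library. Its libraries did not overlap (log2 change 1.03, SE 0.12, limma adjusted p = 0.00436). Among the members, Krt19, Krt42 and Jup follow one another on chromosome 11, with gaps of 114 kb and 90.7 kb, and all 3 were higher. Neighbours were sought among the members only, so other genes may lie in these gaps. Krt7, a keratin of ducts and trophoblast, lay under the minimum for testing, at 0.301 and 0.402 FPKM with the drug and 0.135 and 0.266 FPKM without. Keratin transcripts resemble each other, and how reads shared between them were assigned is not given in the sources used here, so levels of single keratins are uncertain.

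**Figure D2:**
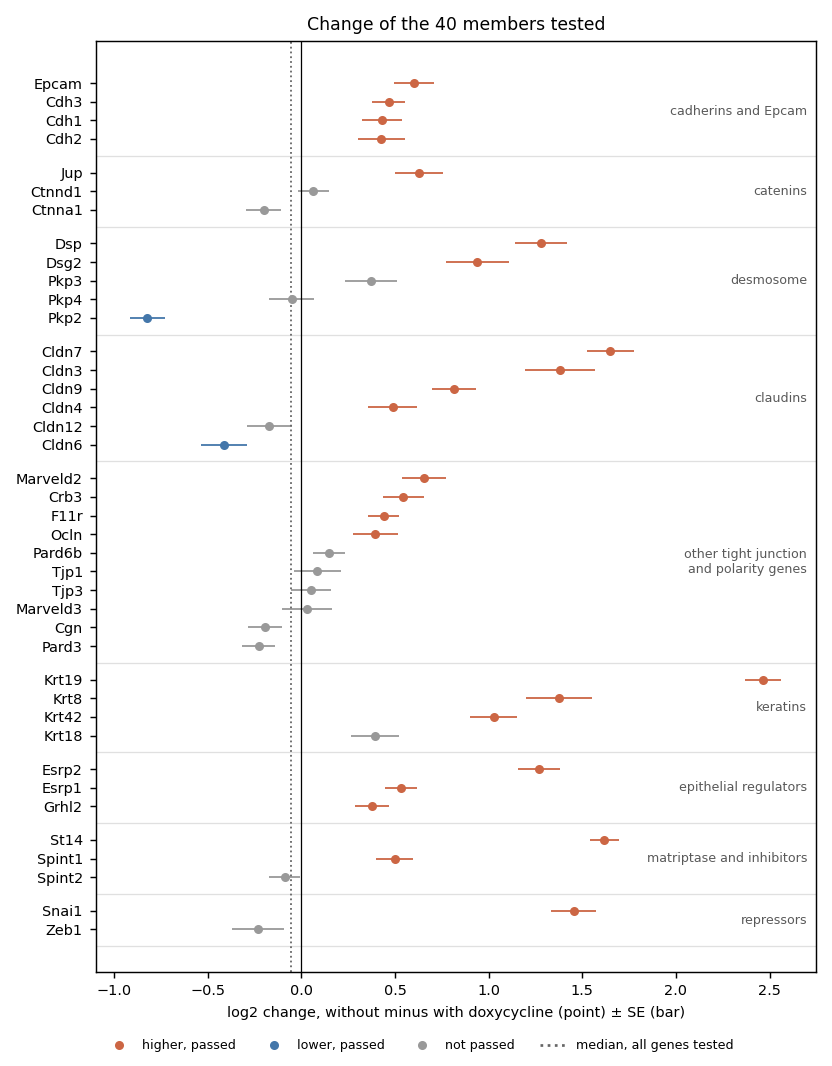
Log2 change of each of the 40 members tested, without minus with doxycycline on the log2(FPKM + 0.5) scale, with its SE as a bar, by role. Orange points were called higher, blue points lower and grey points did not pass in limma (adjusted p under 0.05), and the dotted line is the median of all genes tested (-0.06). Pkp2 (-0.82) and Cldn6 (-0.41) are the 2 blue points.

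The 3 regulators of the epithelial state were higher without doxycycline when their isoforms were summed, and none passed by its most abundant isoform alone (limma adjusted p = 0.0532 for Esrp1, 0.0786 for Esrp2 and 0.636 for Grhl2). Esrp1 and Esrp2 encode splicing regulators that keep epithelial exons in transcripts. Esrp1 was at 7.29 and 7.27 FPKM with the drug and 10.4 and 11.1 FPKM without, and Esrp2 (chr8:108654219-108660874, minus strand) at 4.06 and 3.36 FPKM with it and 9.61 and 9.60 FPKM without. Neither gene overlapped between conditions, and the paralogs differed in size of change, 0.53 for Esrp1 (SE 0.09, limma adjusted p = 0.00906) and 1.27 for Esrp2 (SE 0.11, limma adjusted p = 0.00243), a difference that was not tested. Grhl2, a grainyhead-like transcription factor of epithelia, was at 8.39 and 9.11 FPKM with doxycycline and 11.1 and 11.8 FPKM without (log2 change 0.37, SE 0.09, limma adjusted p = 0.0272). Its call was lost without any one library (log2 change 0.32 to 0.43, limma adjusted p between 0.0610 and 0.148).

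Matriptase, a membrane serine protease of epithelia, had a larger change than its inhibitors. St14 (chr9:30896955-30939438, minus strand), which encodes it, was at 14.8 and 15.0 FPKM with doxycycline and 45.8 and 47.8 FPKM without. This 3.14-fold difference far exceeded the spread between libraries (log2 change 1.62, SE 0.08, limma adjusted p = 0.00137). Spint1, which encodes the inhibitor HAI-1, was at 23.9 and 24.4 FPKM with the drug and 32.0 and 36.7 FPKM without (log2 change 0.50, SE 0.10, limma adjusted p = 0.0154), and lost its call without library 0 with doxycycline (log2 change 0.49, limma adjusted p = 0.0655) or library 1 with it (0.51 and 0.0589). Spint2, which encodes HAI-2, was at 148 and 143 FPKM with doxycycline and 139 and 134 FPKM without, a difference that did not pass (limma adjusted p = 0.422). By mean FPKM, St14 went from below Spint1 (14.9 ± 0.162 and 24.1 ± 0.304) to above it (46.8 ± 1.41 and 34.4 ± 3.34), while both stayed below Spint2 in every library.

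Of the 4 repressors, Snai1 alone was called, and it was higher together with the epithelial genes. Snai1 (chr2:167363695-167368314, plus strand), which encodes a repressor of Cdh1, was at 1.26 and 1.04 FPKM with doxycycline and 3.96 and 4.06 FPKM without. This is a 3.49-fold difference between low levels, with no overlap (log2 change 1.45, SE 0.12, limma adjusted p = 0.00224). Zeb1 was at 4.33 and 4.80 FPKM with the drug and 3.37 and 4.31 FPKM without, which did not pass (log2 change -0.23, SE 0.14, limma adjusted p = 0.235). Zeb2, at 0.224 and 0.341 FPKM with it and 0.141 and 0.300 FPKM without, and Snai2, at 0.306 and 0.325 FPKM with it and 0.140 and 0.185 FPKM without, lay under the minimum for testing.

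The miR-200 microRNAs fall into a pair of seed groups that differ at 1 seed base, and Zeb2 is shown as the member with the most sites of 8 bases. The mature sequences are from RefSeq, with the seed in capitals.
mmu-miR-200b-3p: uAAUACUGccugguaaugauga
mmu-miR-429-3p: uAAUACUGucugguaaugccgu
mmu-miR-200a-3p: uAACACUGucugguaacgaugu
mmu-miR-141-3p: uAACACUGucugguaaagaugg
In the Zeb2 region of 4941 nt, CAGTATTA of the first seed group began at bases 458, 820, 905 and 1039, and CAGTGTTA of the second at bases 209 and 782, printed in that order with the match in capitals.
Zeb2 458: ctacagtgcatCAGTATTAcgattcctcaa
Zeb2 820: agcacccgtgtCAGTATTAgacgactaggc
Zeb2 905: attaattttgtCAGTATTAcaccaaacttt
Zeb2 1039: actgtagtgtaCAGTATTAtagttcttcaa
Zeb2 209: aaaattttgtaCAGTGTTAaggcctaaaaa
Zeb2 782: tgcaccagcttCAGTGTTAagctcaccgtg
Zeb1 held 5 matches of CAGTATT for miR-200b-3p, 3 of them within sites of 8 bases, and 4 sites of 7 bases for miR-200a-3p. With both sets of sites, Zeb1 did not pass and Zeb2 was under the minimum in both conditions. Snai1, called higher, held 1 site of 7 bases for miR-200b-3p. Snai2, under the minimum, held 1 such site for each seed group. A site of 7 or 8 bases was held by 15% of the members tested for miR-200b-3p (20.3% of genes) and by 17.5% for miR-200a-3p (25.7% of genes). Over all genes, 23.1% of those with a miR-200b-3p site and 21.7% of those without were called higher, and 22.9% and 21.6% for miR-200a-3p. Levels of these microRNAs were not analysed here.

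The member isoforms assembled by the authors numbered 390, of which 124 reached 1 FPKM in a condition, and 27 members had 2 or more such isoforms. When each gene was represented by its most abundant isoform, 13 members were called higher, against 24 for summed isoforms. The calls lost were those of Cdh1, Cdh2, Epcam, Cldn4, Cldn9, Ocln, Crb3, Esrp1, Esrp2, Grhl2 and Spint1 (limma adjusted p between 0.0507 and 0.636). The 3 members whose call changed with the largest adjusted p were Grhl2 (limma adjusted p = 0.636), Cdh2 (0.487) and Crb3 (0.156). The 4944-nt isoform of Grhl2 was at 3.21 and 3.72 FPKM with doxycycline and 3.84 and 3.67 FPKM without. A 4947-nt isoform of Grhl2 was at 0.182 and 0.582 FPKM with the drug and 0.719 and 3.67 FPKM without, so the libraries without it differed in this isoform, while the gene's sums were 11.1 and 11.8 FPKM. In Crb3, the 1152-nt isoform was at 4.10 and 1.47 FPKM with the drug and 5.50 and 5.96 FPKM without, and the 1085-nt isoform at 0.999 and 2.97 FPKM with it and 1.45 and 0 FPKM without. In Cdh2, the 3785-nt isoform overlapped between conditions, at 0.858 and 1.24 FPKM with doxycycline and 1.58 and 1.11 FPKM without.

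Krt42 was added after its isoforms were seen. Its 1542-nt isoform went from 8.45 ± 0.851 FPKM with doxycycline to 31.9 ± 2.14 FPKM without, while the 1062-nt isoform was at 12.9 ± 0.806 and 16.6 ± 1.92 FPKM. With the drug the shorter isoform was the more abundant, and without it the longer. Another isoform, of 868 nt, was at 7.17 ± 2.91 FPKM with the drug and 17.1 ± 2.34 FPKM without. These isoform levels were not tested against each other.

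**Figure D3:**
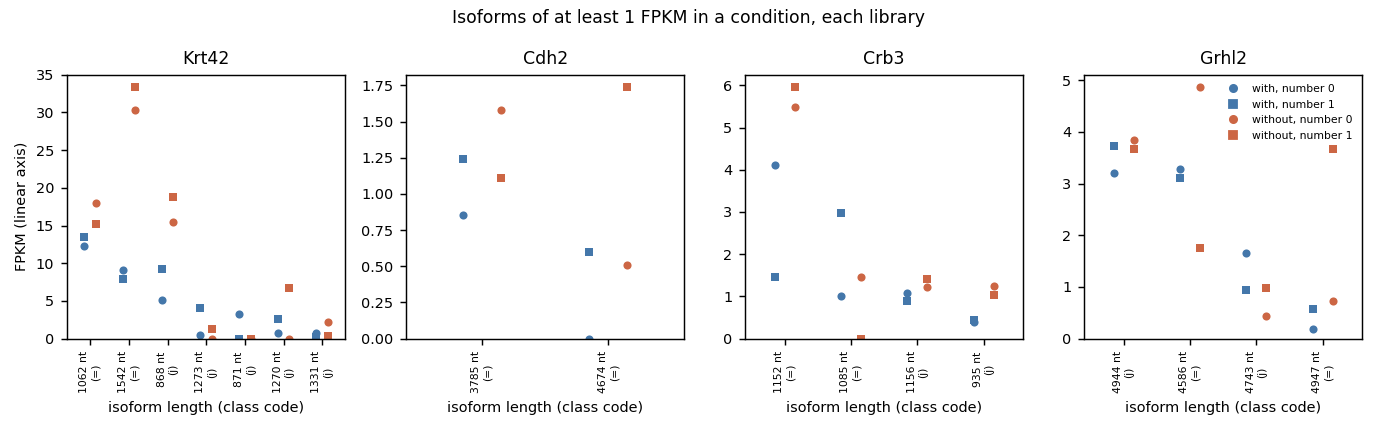
FPKM on linear axes of the isoforms that reached 1 FPKM in a condition, for Krt42, Cdh2, Crb3 and Grhl2, named by length with the assembly's class code (= for a match to a reference transcript, j for a shared splice junction). Blue points are libraries with doxycycline and orange points those without, circles number 0 and squares number 1. The 1542-nt isoform of Krt42 lies at 30.3 and 33.4 FPKM without the drug, above 7.84 and 9.05 FPKM with it, while the isoforms of Cdh2 overlap.

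The neighbouring gene families, 177 further genes in 7 lists, were read in the same fit. Of these 95 were tested, and 40 were higher (42.1%), 12 lower (12.6%) and 43 not passed, with a median log2 change of 0.27. Over all genes tested, 19.7% were higher and 21.3% lower. The list of epithelial regulators and surface proteins had 14 of 19 higher and 2 lower (median 0.97), among them the transcription factor Elf3, at 12.6 and 14.3 FPKM with doxycycline and 43.6 and 47.3 FPKM without (log2 change 1.72, SE 0.10, limma adjusted p = 0.00159). The receptor Erbb3 was at 8.29 and 8.17 FPKM with the drug and 27.9 and 27.5 FPKM without (log2 change 1.69, SE 0.08, limma adjusted p = 0.00134). Their log2 changes lie next to that of St14 (1.62), and neither gene overlapped between conditions. Ehf, also called higher in this list, averaged 0.352 FPKM with the drug and 2.17 FPKM without. It was thus tested only through the condition where it is high. In the list of other keratins, plakins and keratin-associated genes, 3 of 8 tested were higher and 2 lower. The lower ones, Krtcap2 and Fam83h, and the higher Krtcap3 are neither keratins nor plakins, and the plakins Plec, Dst and Macf1 did not pass. The keratins tested were Krt17, at 6.76 and 7.71 FPKM with the drug and 28.1 and 37.4 FPKM without, and Krt13, at 0.437 and 1.10 FPKM with it and 2.64 and 3.18 FPKM without. Both were called higher (limma adjusted p = 0.00198 and 0.0130). Krt13 averaged 0.767 FPKM with the drug and 2.91 FPKM without, so it was tested only through the condition where it is high. Of 2 desmosome genes tested, Perp, a membrane protein of desmosomes, was higher (9.84 and 8.51 FPKM with, 21.5 and 19.3 FPKM without, limma adjusted p = 0.00287). Cdsn, which encodes corneodesmosin, did not pass (1.69 and 1.48 FPKM with, 2.42 and 2.08 FPKM without, limma adjusted p = 0.0605).

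Junction and polarity genes outside the set had calls in both directions. Called higher were 26.3% of adherens junction, 40% of tight junction and 25% of polarity genes tested, and 19.7% of all genes tested. Called lower were 10.5%, 6.67% and 18.8% of these lists, and 21.3% of all genes tested. The adherens junction and polarity shares called higher lie near that of all genes. In adherens junctions 5 of 19 were higher and 2 lower (median 0.10), and the largest changes were those of Tns1, which encodes the focal adhesion protein tensin (2.98 and 3.37 FPKM with, 8.34 and 9.04 FPKM without), and Afap1, an actin-binding protein (2.59 and 2.67 FPKM with, 0.988 and 0.779 FPKM without). Tns1 was called higher and Afap1 lower (limma adjusted p = 0.00210 and 0.00383). Afap1 averaged 2.63 FPKM with the drug and 0.884 FPKM without, so it was tested only through the condition where it is high. The same holds for Ctnnd2 (0.760 FPKM with, 2.32 FPKM without) and Pvrl4 (0.779 and 1.80 FPKM), both called higher in this list. In tight junctions 6 of 15 were higher and 1 lower (median -0.04), led by Arhgef18 (18.8 and 22.3 FPKM with, 40.7 and 51.2 FPKM without), and the adhesion molecule Jam2 (58.3 and 64.2 FPKM with, 99.2 and 115 FPKM without), both called higher (limma adjusted p = 0.00509 and 0.00608). In polarity genes 4 of 16 were higher and 3 lower (median -0.02), with the scaffold Dlg5 higher (10.5 and 10.1 FPKM with, 26.5 and 22.5 FPKM without) and the Par complex member Pard6g lower (6.61 and 6.41 FPKM with, 3.49 and 3.25 FPKM without; limma adjusted p = 0.00243 and 0.00363).

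More mesenchymal genes were called higher than lower. Of 16 tested, 7 were higher (43.8%), 2 lower (12.5%) and 7 did not pass (median 0.34). Over all genes tested, 19.7% were higher and 21.3% lower. Among the higher ones were Fn1, Sparc, Mmp14, Itga5, Axl and Tcf4, and the lower ones were Mmp2 and Lgals1. Vim, which encodes vimentin, was at 85.2 and 120 FPKM with the drug and 144 and 275 FPKM without, with no overlap but a wide spread between the libraries without it, and did not pass (log2 change 0.97, SE 0.34, limma adjusted p = 0.0697).

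**Figure D4:**
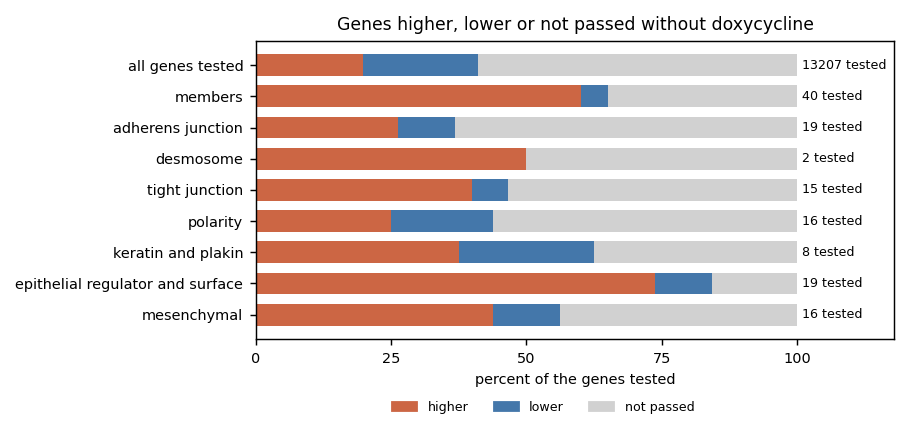
Share of the tested genes of each list called higher (orange), lower (blue) or not passed (grey) without doxycycline, as a percent on the x axis, with the number tested at the right. The members stand at 24 higher and 2 lower of 40, the other epithelial regulators and surface proteins at 14 higher and 2 lower of 19, and all genes at 19.7% higher and 21.3% lower.

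Markers of other cells that a stem cell culture could hold were read beside these changes. The 5 markers of surface epithelium summed to 12.0 and 14.2 FPKM with doxycycline and 23.9 and 27.5 FPKM without, of which Sfn, the 1 tested and called higher, gave nearly all, and Krt5, Krt14, Krt15 and Trp63 lay under the minimum. Of 8 primitive endoderm markers, 3 were tested, with Sparc and Gata4 higher and Lama1 lower, and the list summed to 110 and 117 FPKM with the drug and 176 and 185 FPKM without, most of it Sparc. Its other defining markers Gata6, Sox17, Pdgfra, Dab2 and Foxa2 lay under the minimum. Gata4 averaged 0.656 FPKM with the drug and 1.33 FPKM without, so it was tested only through the condition where it is high. None of the 7 trophoblast markers found in the table reached the minimum (summed 2.62 and 2.59 FPKM with, 2.04 and 2.04 FPKM without), and Tpbpa was listed at 0 in every library. Of 6 epiblast and early ectoderm markers, 4 were tested, with Otx2 higher and Pou3f1 and Dnmt3b lower, and the list summed to 62.7 and 70.2 FPKM with the drug and 43.7 and 49.1 FPKM without. Pou3f1 averaged 2.56 FPKM with the drug and 0.898 FPKM without, so it too was tested only through the condition where it is high. Of 10 fibroblast markers 2 were tested and neither passed, with sums of 5.09 and 4.82 FPKM with and 5.38 and 5.68 FPKM without, and Col3a1 and Postn were listed at 0. The part of other cells in the changes above was not tested.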

How the data were processed

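Messenger RNA was measured in 4 libraries of 6 samples in the series, and the other 2, which hold spike-in RNA, are not part of it. The authors deposited FPKM per assembled isoform, and TopHat2 2.0.9, Cufflinks 2.1.1 and the build NCBIM37 are named in the submitters' processing notes, with no role or order. Of 181027 isoforms, 141569 were used: those with a gene name, of at least 200 nt, matching a reference transcript or sharing a junction with one (class code = or j). Isoforms under 200 nt held between 98.9% and 99.6% of a library's summed FPKM. FPKM was summed per gene symbol, after 25 symbols held as dates (236 isoforms) had been restored from the authors' second table. Genes averaging at least 1 FPKM in one condition or the other entered limma 3.58.1 (R 4.3.3) as log2(FPKM + 0.5), with a trend, 2 residual degrees of freedom, 3.21 prior ones and two-sided p-values, with Benjamini-Hochberg adjustment over 13207 genes at 0.05. The numbers 0 and 1 in the file could not be matched to the labels' replicate numbers, so libraries were unpaired. The procedure was run on simulated data with the same spread for every gene, independent libraries and few genes changed. The real libraries differ from those settings, so that run does not give the error rate of the calls here. Members and lists were chosen with earlier results of these data known. Every member is named, and of each wider list the 2 genes with the largest absolute change, 1 of which is not reported here. Alternatives changed the pseudocount, filter, scaling, isoforms, trend and libraries. Other steps used Python 3.11.15, numpy 2.4.6, pandas 2.3.3 and matplotlib 3.10.9.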

Additional observations from a re-analysis of the deposited data

How the results depend on the processing

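Over 14 alternatives, 552 values of single members were recomputed, of which 473 kept direction and side of the threshold, 56 fell short of it, 10 newly passed and 13 changed sign. The number of members higher without doxycycline was 24, and 13 with the most abundant isoform of each gene, the widest departure, and between 15 and 20 when a library was left out. The number lower was 2, and 1 with no filter on low values, on the TPM scale, with all isoforms or with no trend, and 4 with library medians set equal, with 1 to 2 when a library was left out. Over all genes, 5417 calls became 2053 with the most abundant isoform, where 39 members were tested, and 3229 and 3480 without a library with doxycycline (3752 and 4416 without one lacking it). The 40 wider genes higher and 12 lower became 25 and 5 with the most abundant isoform, and the lower ones 7 to 12 with a library left out. Scaling moved the split of calls. Of all calls, 48.1% were higher, against 38.0% with library medians set equal and 67.6% on the TPM scale. The median change of all genes was -0.06, -0.12 and 0.10 in these, and that of the members 0.44, 0.37 and 0.61. The members' median was 0.46 with a pseudocount of 0.1 FPKM, 0.43 with 1 FPKM, 0.39 with no filter, 0.44 with a minimum of 5 FPKM, 0.43 with all isoforms, 0.54 with the most abundant isoform, and 0.42 and 0.47 without a library with doxycycline (0.44 and 0.48 without one lacking it).

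Signs changed only for members that had not passed. With library medians set equal Marveld3 was at -0.034 and Tjp3 at -0.013. On the TPM scale Pkp4 was at 0.11 and Spint2 at 0.070, and with the most abundant isoform Pkp4 was at 0.62 and Tjp3 at -0.37. Without library 0 with doxycycline Marveld3 was at -0.029, Tjp1 at -0.019 and Tjp3 at -0.043, and without library 1 Pkp4 was at 0.036. Without library 0 lacking doxycycline Pkp4 was at 0.068, and without library 1 Marveld3 was at -0.026 and Tjp1 at -0.033. The cause was not tested.

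Across conditions, the libraries are tied only by their number. Low values fell on whole reads in 100% of cases in both libraries numbered 1. In those numbered 0 this share was 34.0% with doxycycline and 34.5% without. Deviations of same-numbered libraries correlated at 0.46 over 13207 genes, with only 2 pairs, and a replicate block by that number gave 8157 calls, with 26 members higher and 4 lower, Ctnna1 and Pard3 joining the lower ones. Pkp3 and Krt18 joined the higher ones. Depth is known for 2 of the 4 libraries, so counting error is not known for the others.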
